A study of Mus musculus with 9 samples.

Results

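The NF-kB family was followed in RNA sequencing of the medial prefrontal cortex of DBA2/J mice, an inbred strain. The members were 10 genes chosen by symbol, and each symbol was tied to its row of the deposited table by its NCBI gene ID. They are 5 subunits (Nfkb1, Nfkb2, Rel, Rela and Relb) and 5 inhibitors (Nfkbia, Nfkbib, Nfkbie, Nfkbiz and Tnfaip3). All 10 were found among the 36172 features, and all 10 passed the filter on low counts that left 15144 genes.

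SA:ANH-KDM5Ci mice (3 libraries) went through 5 days of social defeat, in which a mouse is exposed repeatedly to an aggressor, were assigned to the SA:ANH subtype, and received an inhibitor of the histone demethylase KDM5C. SA:ANH-vehicle mice (3 libraries) had the same stress and subtype and received vehicle, which the treatment labels call saline. NS mice (3 libraries) were not stressed and received the same vehicle. All 3 groups share strain and tissue, so the first group differs from the second by the drug and the second from the third by stress and subtype. The labels do not say what SA:ANH stands for, nor which compound, dose or route was used. No group of stressed mice outside the SA:ANH subtype and no group of unstressed mice given the drug was analysed here. The labels do not say whether each library of a group stems from its own mouse. The p-values therefore cover the spread between these libraries, which may be technical.

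NF-kB transcription factors are dimers of the 5 subunits. In resting cells the IkB proteins hold them in the cytoplasm. Inflammatory cytokines, Toll-like receptors and other signals activate the IKK kinases, which mark IkB proteins for destruction, and the freed dimers enter the nucleus and bind kappa-B sites. Nfkbia, which encodes IkB-alpha, and Tnfaip3, which encodes the ubiquitin-editing enzyme A20, are themselves NF-kB targets and close negative feedback loops. Nfkbia is also known as a gene that glucocorticoid hormones induce. In brain, NF-kB acts in microglia, endothelium, astrocytes and neurons.

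The sequences before the transcription starts of the members were searched for kappa-B sites. RefSeq promoters on GRCm38.p6 were matched by gene for 7 of the 10 members, and the 250 bases before each start were read on both strands for the kappa-B consensus. The sites are printed here with their neighbouring bases because these genes both respond to NF-kB and control it, and capitals mark the match.
Nfkbia: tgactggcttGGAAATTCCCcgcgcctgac
Nfkb2: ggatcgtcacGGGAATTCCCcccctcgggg
Rel: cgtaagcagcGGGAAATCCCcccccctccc
Nfkbie: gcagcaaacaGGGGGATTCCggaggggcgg
Tnfaip3: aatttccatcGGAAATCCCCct

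The Nfkbia site lay at chr12:55492667-55492676, from 29 to 20 bases before the start. The Nfkb2 site lay from 39 to 30 bases before its first start (chr19:46304698-46304707), and the Rel site from 92 to 83 bases before its start (chr11:23771052-23771061). The Nfkbie site lay from 106 to 97 bases before its start (chr17:45555594-45555603). The Tnfaip3 site shown lay from 12 to 3 bases before its first start (chr10:19015413-19015422), and another lay from 125 to 116 bases before it. A match was found for 5 of the 7 members, and none for Rela or Nfkbib in this window. For comparison, 3.9% of the 32851 promoters in the table, belonging to 4.46% of genes, held a match. With the window cut to 100 bases before the start, 4 members kept a match, and 1.5% of all promoters had one. A match describes letters in the sequence and is not evidence of binding.

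The 250 bases before the Nfkbia start (chr12:55492648-55492897, minus strand, GRCm38.p6) are shown because Nfkbia was the member that moved with the drug. Capitals mark the kappa-B match.
Nfkbia promoter: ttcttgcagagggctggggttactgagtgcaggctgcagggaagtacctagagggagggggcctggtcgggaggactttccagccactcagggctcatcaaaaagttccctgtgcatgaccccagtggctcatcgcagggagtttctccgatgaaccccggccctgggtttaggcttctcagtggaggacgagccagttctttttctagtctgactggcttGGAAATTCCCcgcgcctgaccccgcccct

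The full glucocorticoid response element consensus was found before no start of the 7 members and in 0.0365% of all promoters. Its hexamer AGAACA was found for 1 member, Tnfaip3 at its second start, and in 16.1% of promoters.

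The libraries held 29845097 to 42196472 counts each, and between 17501 and 17795 features were above 0. Each member had at least 47 counts in every library, so the members were not limited by depth in the way of a gene near 0. The first principal component held 29.4% of the variance and placed the 3 SA:ANH-KDM5Ci libraries apart from the other 6. Cortical markers were high in every library: the summed level of 6 excitatory neuron markers was 5290 to 5690 CPM (counts scaled to library size) in SA:ANH-KDM5Ci, 5510 to 5840 CPM in SA:ANH-vehicle and 5540 to 5990 CPM in NS libraries. The sum of 8 striatal neuron markers was highest in the first SA:ANH-KDM5Ci library and next highest in the third. It was 550, 225 and 360 CPM in SA:ANH-KDM5Ci, 196 to 260 CPM in SA:ANH-vehicle and 175 to 308 CPM in NS libraries. The targeted family was present: Kdm5a, Kdm5b, Kdm5c and Kdm5d did not pass the test in any comparison, with Kdm5c at a log2 fold change of -0.13 in SA:ANH-KDM5Ci over SA:ANH-vehicle. The drug acts on the protein, so this mRNA does not check the labels.

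The 5 subunits showed no called difference in any comparison, and the drug group differed from the others in the inhibitor Nfkbia. Nfkbia rose 2.95-fold in SA:ANH-KDM5Ci over SA:ANH-vehicle and 3.26-fold over NS. Nfkbiz rose 2.0-fold in SA:ANH-KDM5Ci over NS, and Tnfaip3, Nfkbib and Nfkbie did not pass the test in any comparison. All levels that follow are CPM on TMM-scaled library sizes, and SD is over 3 libraries. A gene was called at an adjusted p under 0.05, from edgeR's quasi-likelihood test and Benjamini-Hochberg adjustment over the 15144 genes.

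**Figure D1:**
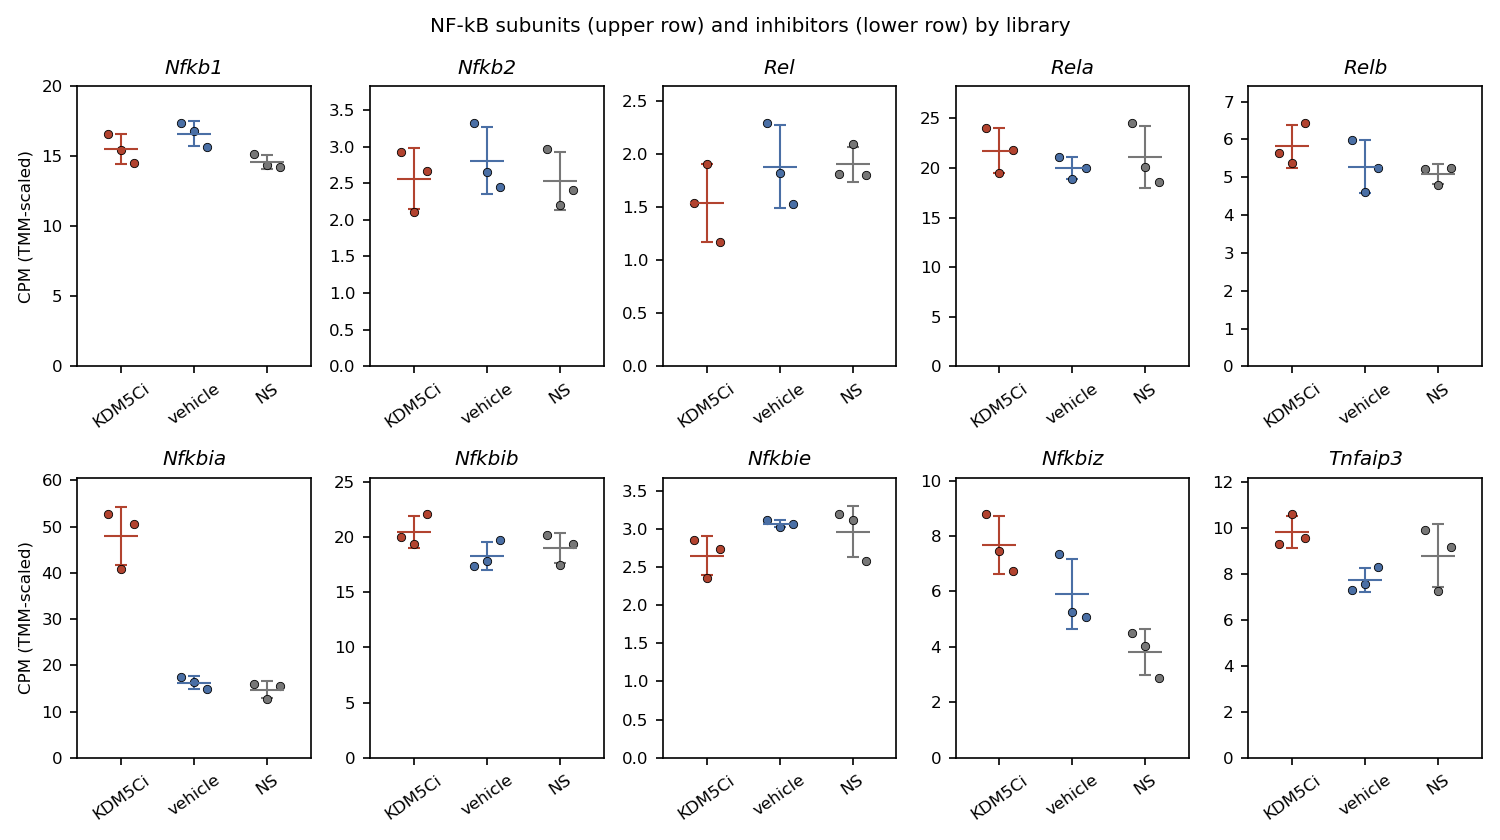
Level of each member in every library, in CPM on TMM-scaled library sizes, with subunits in the upper row and inhibitors in the lower row; points are libraries in replicate order, and the bar and whiskers are the group mean and SD (n = 3). The 3 SA:ANH-KDM5Ci libraries of Nfkbia sit between 41.0 and 52.7 CPM, above all 6 others.

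Nfkbia (gene ID 18035, chr12:55489409-55492647, minus strand) encodes IkB-alpha, the inhibitor that is degraded and made again fastest after stimulation. Its level was 52.7, 41.0 and 50.5 CPM in the SA:ANH-KDM5Ci libraries, 17.5, 16.5 and 14.9 CPM in the SA:ANH-vehicle libraries and 16.03, 12.7 and 15.5 CPM in the NS libraries. The lowest drug library was more than 2-fold above the highest of the other 6, and the SA:ANH-vehicle and NS ranges overlapped. The means were 48.1 ± 6.26, 16.3 ± 1.35 and 14.8 ± 1.79 CPM in SA:ANH-KDM5Ci, SA:ANH-vehicle and NS (SD, n = 3 each). The log2 fold change of SA:ANH-KDM5Ci over SA:ANH-vehicle was 1.56 with a standard error of 0.11, and the adjusted p was 1.02e-05 in edgeR's quasi-likelihood test. Over NS it was 1.71 with a standard error of 0.11 (adjusted p = 3.36e-06 by the same test). SA:ANH-vehicle over NS gave 0.15 with a standard error of 0.11 (adjusted p = 0.805). These comparisons share libraries and are not independent of each other. With each library left out in turn, the log2 fold change over SA:ANH-vehicle was between 1.49 and 1.66.

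In SA:ANH-KDM5Ci over SA:ANH-vehicle, Nfkbia was the 1 member of 10 that was called, while 2.51% of all genes tested passed, 135 of them higher and 245 lower. The comparison with NS called 2 of 10 members, Nfkbia and Nfkbiz, both higher, against 3.97% of all genes, of which 281 were higher and 320 lower. In SA:ANH-vehicle over NS, edgeR's quasi-likelihood test called 0 of 10 members, against 0.0132% of all genes. There, 2 members, Nfkb1 and Nfkbiz, had an unadjusted p under 0.05, as had 1244 of the 15144 genes, and DESeq2 and limma-voom also called 0. The libraries of the groups compared did not overlap for 3 of 10 members in SA:ANH-KDM5Ci over SA:ANH-vehicle, against 18.9% of all genes tested. The same held for 2 of 10 in SA:ANH-vehicle over NS, against 15.1%, and for 3 of 10 in SA:ANH-KDM5Ci over NS, against 23.5%.

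Some markers of other cell types moved in the same comparison as Nfkbia. The summed level of 11 meningeal and fibroblast markers was 87.5 to 97.1 CPM in SA:ANH-KDM5Ci libraries, 128 to 205 CPM in SA:ANH-vehicle libraries and 112 to 181 CPM in NS libraries. All 11 had a negative log2 fold change in SA:ANH-KDM5Ci over SA:ANH-vehicle, with a median of -0.87. Of these, 4 were called, against 2.51% of all genes tested. All 11 were also negative in SA:ANH-KDM5Ci over NS, with a median of -0.71 and 1 called, against 3.97% of all genes. Of 10 endothelial markers, 8 had a negative and 2 a positive log2 fold change over SA:ANH-vehicle. Of the 10, 3 were called lower, against 2.51% of all genes called. Their sums were 203 to 256 CPM in SA:ANH-KDM5Ci, 255 to 275 CPM in SA:ANH-vehicle and 254 to 271 CPM in NS libraries. The 10 microglia markers summed to 418 to 522 CPM in SA:ANH-KDM5Ci, 432 to 448 CPM in SA:ANH-vehicle and 413 to 423 CPM in NS libraries, and none was called in any of the 3 comparisons. The 6 oligodendrocyte markers summed to 2640 to 3450 CPM in SA:ANH-KDM5Ci, 1870 to 2950 CPM in SA:ANH-vehicle and 1450 to 2940 CPM in NS libraries. All 6 had a positive log2 fold change over SA:ANH-vehicle, with a median of 0.45, and none was called. Of 6 oligodendrocyte precursor markers, Olig1 and Olig2 were called higher over SA:ANH-vehicle, at log2 fold changes of 0.47 and 0.72, against 2.51% of all genes called. Sox10 and Gpr17 went the other way, at -0.49 and -0.17, and were not called. The sum of the 6 was 261 to 281 CPM in SA:ANH-KDM5Ci, 221 to 243 CPM in SA:ANH-vehicle and 225 to 264 CPM in NS libraries. Of 8 mural cell markers, 6 had a negative and 2 a positive log2 fold change over SA:ANH-vehicle. Only Pdgfrb was called there, at -0.45, against 2.51% of all genes called. The mural sums were 142 to 165 CPM in SA:ANH-KDM5Ci, 160 to 190 CPM in SA:ANH-vehicle and 152 to 171 CPM in NS libraries. All 8 striatal neuron markers had a positive log2 fold change over SA:ANH-vehicle, with a median of 0.88, and none was called. The part of these shifts in the Nfkbia result was not tested. In bulk tissue, fewer cells of a type and less RNA per cell cannot be told apart.

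Nfkbiz encodes IkB-zeta, an inducible nuclear IkB protein that binds NF-kB dimers on DNA and is needed for a subset of secondary inflammatory genes. It had 8.79, 7.47 and 6.75 CPM in SA:ANH-KDM5Ci libraries, 7.36, 5.26 and 5.09 CPM in SA:ANH-vehicle libraries and 4.49, 4.04 and 2.88 CPM in NS libraries. The group means were 7.67 ± 1.04, 5.90 ± 1.26 and 3.80 ± 0.834 CPM in SA:ANH-KDM5Ci, SA:ANH-vehicle and NS (SD, n = 3 each), and the drug and vehicle libraries overlapped. Every SA:ANH-KDM5Ci library and every SA:ANH-vehicle library was above every NS library. The log2 fold change was 1.00 with a standard error of 0.18 in SA:ANH-KDM5Ci over NS (adjusted p = 0.00831 in edgeR's quasi-likelihood test). It was 0.63 with a standard error of 0.18 in SA:ANH-vehicle over NS (adjusted p = 0.336). It was 0.37 with a standard error of 0.17 in SA:ANH-KDM5Ci over SA:ANH-vehicle (adjusted p = 0.364), so neither single step passed the test. Blood markers moved in the same comparison: 4 of the 5 tested rose in SA:ANH-KDM5Ci over NS, against 3.97% of all genes called. In SA:ANH-vehicle over NS 1 of the 5 was called, against 0.0132%. The markers' median log2 fold changes in these comparisons were 0.69 and 0.77. All 5 had a negative value in SA:ANH-KDM5Ci over SA:ANH-vehicle, and none was called there. Their sum was 373 to 496 CPM in SA:ANH-KDM5Ci, 407 to 467 CPM in SA:ANH-vehicle and 236 to 272 CPM in NS libraries, and its part in the Nfkbiz result was not tested.

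Tnfaip3 encodes A20, which removes and edits the ubiquitin chains that carry the signal to the IKK kinases. Its levels were 9.29, 10.6 and 9.56 CPM in SA:ANH-KDM5Ci, 7.31, 7.56 and 8.30 CPM in SA:ANH-vehicle and 9.92, 7.27 and 9.17 CPM in NS libraries. The drug and vehicle libraries did not overlap, as for 18.9% of all genes tested, but the NS libraries overlapped with both. The log2 fold change over SA:ANH-vehicle was 0.35 with a standard error of 0.11, at an unadjusted p of 0.00913 and an adjusted p of 0.156 in edgeR's quasi-likelihood test. Over the alternatives tried the adjusted p ran from 0.104 to 0.364, so Tnfaip3 was not called in any of them.

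Nfkbib and Nfkbie encode IkB-beta and IkB-epsilon, the other classical IkB proteins that keep dimers in the cytoplasm. Nfkbib had 19.98, 19.4 and 22.1 CPM in SA:ANH-KDM5Ci, 17.3, 17.8 and 19.7 CPM in SA:ANH-vehicle and 20.2, 17.5 and 19.4 CPM in NS libraries, with overlap between all groups. Its log2 fold change over SA:ANH-vehicle was 0.17 with a standard error of 0.08 (adjusted p = 0.376 in edgeR's quasi-likelihood test). Nfkbie had 2.85, 2.36 and 2.74 CPM in SA:ANH-KDM5Ci, 3.12, 3.02 and 3.06 CPM in SA:ANH-vehicle and 3.19, 3.12 and 2.58 CPM in NS libraries. The drug libraries of Nfkbie were all below the vehicle libraries, with a log2 fold change of -0.21, a standard error of 0.14 and an adjusted p of 0.556. Nfkbib overlaps the opposite-strand gene Ccer2 over 715 bases. Whether the counting used the strand is unknown, and reads there cannot be told apart.

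Among the subunits, Rela encodes p65, the main activating subunit, and Nfkb1 encodes p105, which is processed to p50, its usual partner. Rela had 24.1, 19.5 and 21.8 CPM in SA:ANH-KDM5Ci, 21.1, 18.9 and 20.005 CPM in SA:ANH-vehicle and 24.6, 20.1 and 18.6 CPM in NS libraries. The 3 groups overlapped, and the log2 fold change over SA:ANH-vehicle was 0.12 with a standard error of 0.10 (adjusted p = 0.668 in edgeR's quasi-likelihood test). Nfkb1 had 16.6, 15.5 and 14.5 CPM in SA:ANH-KDM5Ci, 17.4, 16.8 and 15.7 CPM in SA:ANH-vehicle and 15.1, 14.4 and 14.2 CPM in NS libraries. Its vehicle libraries all lay above the NS libraries, with a log2 fold change of 0.19, a standard error of 0.07 and an adjusted p of 0.526.

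Relb and Nfkb2 encode the RelB and p100 proteins of the alternative pathway, in which p100 is processed to p52. Relb had 5.64, 5.36 and 6.45 CPM in SA:ANH-KDM5Ci, 5.999, 4.62 and 5.24 CPM in SA:ANH-vehicle and 5.23, 4.79 and 5.25 CPM in NS libraries. The drug libraries were all above the NS libraries, by a log2 fold change of 0.20 with a standard error of 0.12 (adjusted p = 0.414 in edgeR's quasi-likelihood test). Nfkb2 stayed between 2.10 and 3.33 CPM over all 9 libraries, with overlapping groups. It overlaps Psd on the opposite strand over 316 bases, and Psd averaged 20423 counts a library, so reads in that stretch cannot be told apart. Rel encodes c-Rel, best known from lymphocytes, and had the lowest level of the 10, from 1.17 to 2.30 CPM. Its log2 fold change was -0.31 with a standard error of 0.21 in SA:ANH-KDM5Ci over SA:ANH-vehicle (adjusted p = 0.57), and the groups overlapped.

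**Figure D2:**
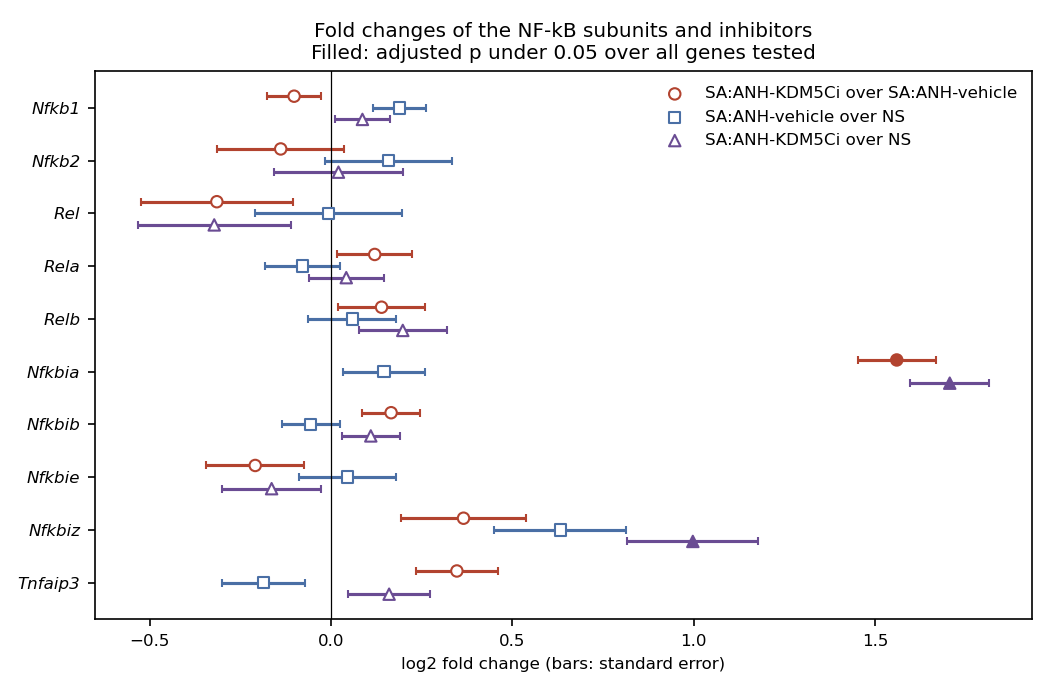
Log2 fold change of each member (x axis) in the 3 comparisons, with bars of 1 standard error; filled symbols have an adjusted p under 0.05 over all genes tested. Nfkbia stands at 1.56 and 1.71 in the comparisons that hold the drug group and Nfkbiz at 1.00 in SA:ANH-KDM5Ci over NS, while every other symbol is open.

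Per kilobase of transcript, which lets genes be compared, the inhibitors Nfkbia and Nfkbib and the subunit Rela were the most abundant members in each group. The length used was the longest protein-coding GENCODE vM21 transcript. Nfkbia was at 30.5 ± 3.97 CPM per kilobase in SA:ANH-KDM5Ci, 10.3 ± 0.853 in SA:ANH-vehicle and 9.35 ± 1.13 in NS (SD, n = 3 each). Nfkbib was at 9.93 ± 0.692, 8.88 ± 0.617 and 9.22 ± 0.674 CPM per kilobase in the same groups. The levels of these inhibitors overlapped in SA:ANH-vehicle and in NS libraries and stood apart in SA:ANH-KDM5Ci, where the lowest Nfkbia value was 25.9 and the highest Nfkbib value 10.7 CPM per kilobase.

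Below them, Rela averaged 8.01, 7.37 and 7.77, Nfkb1 3.77, 4.04 and 3.54, and Relb 2.63, 2.39 and 2.30 CPM per kilobase in SA:ANH-KDM5Ci, SA:ANH-vehicle and NS. Tnfaip3 followed at 2.22, 1.75 and 1.99 CPM per kilobase in these groups. Nfkbiz averaged 1.86, 1.43 and 0.924 and Nfkbie 1.09, 1.26 and 1.22 CPM per kilobase, so that Nfkbiz was above Nfkbie in every SA:ANH-KDM5Ci library while their levels overlapped in both other groups. Nfkb2 averaged 0.816, 0.895 and 0.804 and Rel 0.206, 0.252 and 0.255 CPM per kilobase.

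The level of Nfkbia was also set against the subunits that IkB-alpha binds. The ratio of Nfkbia to Rela per kilobase was 3.77, 3.62 and 3.99 in SA:ANH-KDM5Ci, 1.43, 1.5 and 1.28 in SA:ANH-vehicle and 1.12, 1.09 and 1.43 in NS libraries. The ratio of Nfkbia to Nfkb1 was 8.29, 6.90 and 9.10 in SA:ANH-KDM5Ci, 2.63, 2.56 and 2.48 in SA:ANH-vehicle and 2.76, 2.30 and 2.85 in NS libraries. Both ratios separated the drug libraries from the other 6 and overlapped between SA:ANH-vehicle and NS. These are ratios of mRNA and do not give the ratio of the proteins.

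The rest of the pathway was described with 113 further genes in 7 lists by role, of which 96 were tested. With the drug over SA:ANH-vehicle 3 of 96 rose and 0 fell, and the lists' median log2 fold change was -0.04 against 0.00 for all genes tested. With the drug over NS 3 rose and 1 fell, with a median of 0.03 against 0.00. In SA:ANH-vehicle over NS edgeR's quasi-likelihood test, DESeq2 and limma-voom each called 0 of 96, and 7 had an unadjusted p under 0.05, against 1244 of all 15144 genes. Beside the counts of calls stand the backgrounds of 2.51%, 3.97% and 0.0132% of all genes called. The libraries of the groups compared did not overlap for 23 of 96 in SA:ANH-KDM5Ci over SA:ANH-vehicle, against 18.9% of all genes tested. The same held for 11 of 96 in SA:ANH-vehicle over NS, against 15.1%, and for 27 of 96 in SA:ANH-KDM5Ci over NS, against 23.5%.

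Of the ligands that start the pathway, Hmgb1, an alarmin and nuclear protein, was at 221 to 251 CPM over the 9 libraries, and the classical inflammatory cytokines Il1b and Tnf were below 1 CPM. Il1b was at 0.56, 0.19 and 0.30 CPM in SA:ANH-KDM5Ci, 0.77, 0.62 and 0.41 CPM in SA:ANH-vehicle and 0.37, 0.22 and 0.30 CPM in NS libraries. Tnf did not pass the filter on low counts and was at most 0.23 CPM. Of the 9 ligand genes tested, edgeR's quasi-likelihood test called 0 in any comparison, and the lowest p in SA:ANH-KDM5Ci over SA:ANH-vehicle belonged to Il1a, with a log2 fold change of -1.32 and a standard error of 0.49 (adjusted p = 0.222 in edgeR's quasi-likelihood test). Il1a was called in 1 of 20 alternatives, with the first replicate of every group left out (adjusted p = 0.0495).

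Among 14 tested receptors, Tlr7, an endosomal receptor of single-stranded RNA, rose. It had 9.29, 8.66 and 7.19 CPM in SA:ANH-KDM5Ci, 4.15, 4.59 and 4.38 CPM in SA:ANH-vehicle and 3.08, 3.87 and 4.75 CPM in NS libraries. The drug libraries lay above all others. The log2 fold change was 0.93 with a standard error of 0.14 over SA:ANH-vehicle and 1.11 with a standard error of 0.15 over NS (adjusted p = 0.0036 and 0.000924 in edgeR's quasi-likelihood test). Tlr7 in brain is known from microglia. Of the 10 microglia markers, 8 had a positive log2 fold change over SA:ANH-vehicle and over NS, with medians of 0.10 and 0.17 and 0 called. P2ry12 and Cx3cr1 were negative in both, at -0.23 and -0.18 over SA:ANH-vehicle and at -0.26 and -0.16 over NS. The part of microglia in the Tlr7 result was not tested.

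Among 17 tested IKK and upstream kinases, Irak2, a kinase of the interleukin-1 and Toll-like receptor signal, rose. It had 30.9, 26.9 and 27.7 CPM in SA:ANH-KDM5Ci, 20.5, 22.5 and 20.9 CPM in SA:ANH-vehicle and 22.2, 22.1 and 20.6 CPM in NS libraries, so the drug libraries lay above the others. The log2 fold change was 0.42 with a standard error of 0.07 over SA:ANH-vehicle and 0.39 with a standard error of 0.07 over NS (adjusted p = 0.00547 and 0.00641 in edgeR's quasi-likelihood test). Map3k14, the NIK kinase that starts the alternative pathway, had 3.31, 2.81 and 2.71 CPM in SA:ANH-KDM5Ci, 4.12, 4.14 and 4.001 CPM in SA:ANH-vehicle and 5.45, 3.90 and 3.95 CPM in NS libraries. It fell by 0.60 on the log2 scale in SA:ANH-KDM5Ci over NS (adjusted p = 0.0417 by the same test). That call was lost in 12 of 21 alternatives, among them leaving out any 1 of 8 of the 9 libraries, with an adjusted p up to 0.146. The subunits of the IKK complex itself, Chuk, Ikbkb and Ikbkg, had log2 fold changes of -0.16, 0.02 and -0.03 in SA:ANH-KDM5Ci over SA:ANH-vehicle and were not called.

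No adaptor or TRAF gene (12 tested), no ubiquitin enzyme or A20 partner (17 tested) and no other IkB family gene (5 tested) was called by edgeR's quasi-likelihood test in any of the 3 comparisons. With other settings, Nfkbil1 and Otud7b over NS were each called in 2 of 21 alternatives, with adjusted p down to 0.0379 for Nfkbil1 without the first replicates and 0.0248 for Otud7b with the replicate block. Of the IkB relatives, Nfkbil1 had drug libraries apart from the others, at a log2 fold change of 0.31 with a standard error of 0.10 over SA:ANH-vehicle (adjusted p = 0.129 in edgeR's quasi-likelihood test). Bcl3, which encodes a nuclear IkB protein, was at 0.52, 0.06 and 0.17 CPM in SA:ANH-KDM5Ci, 1.43, 0.53 and 0.76 CPM in SA:ANH-vehicle and 0.34, 0.39 and 0.77 CPM in NS libraries, and was singled out after its values were seen. Its log2 fold change over SA:ANH-vehicle was -1.89 (adjusted p = 0.131 by the same test).

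Where a list had no call, its gene of lowest p was as follows. With SA:ANH-KDM5Ci over SA:ANH-vehicle, the adaptor Malt1 had a log2 fold change of -0.31 and the ubiquitin ligase gene Rnf31 one of -0.14 (adjusted p = 0.252 and 0.323 in edgeR's quasi-likelihood test). For SA:ANH-vehicle over NS, the log2 fold change was 0.37 for the IkB gene Nfkbid, 0.43 for the kinase gene Map3k8, 0.24 for the adaptor gene Tradd and 0.13 for the ubiquitin ligase gene Birc2. It was 0.39 for the receptor gene Tnfrsf1b, 1.03 for Il1b and 0.57 for the prostaglandin synthase gene Ptgs2, and the adjusted p of these 7 ran from 0.322 for Ptgs2 to 0.69 for Nfkbid. For SA:ANH-KDM5Ci over NS, it was 0.34 for Nfkbil1, 0.29 for the adaptor gene Ticam1, 0.31 for the deubiquitinase gene Otud7b and 0.26 for the cytokine gene Il33, with adjusted p from 0.0763 for Nfkbil1 to 0.381 for Il33. None of these was past the threshold.

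**Figure D3:**
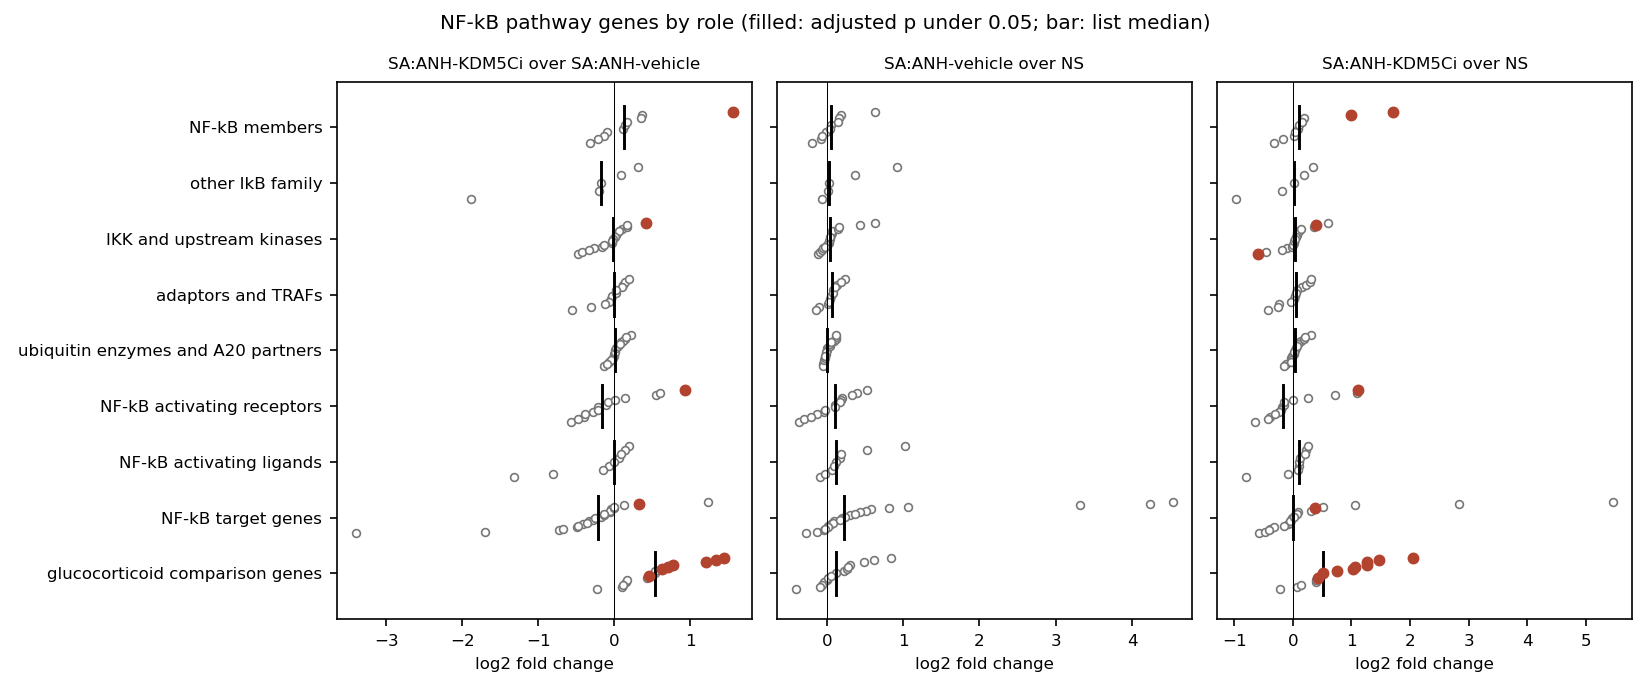
Log2 fold changes of the members and of other NF-kB pathway genes by role (rows) in the 3 comparisons (panels), each point a gene, filled where the adjusted p was under 0.05, with a vertical bar at each list's median. The NF-kB target row has a median of -0.21 in SA:ANH-KDM5Ci over SA:ANH-vehicle and 1 filled point. The glucocorticoid comparison row was chosen with the Nfkbia result known. It has 7 of 15 points filled in that panel, where 2.51% of all genes were called.

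Among known target genes of NF-kB, 1 was called with the drug. Of the 32 listed, 22 were tested. In SA:ANH-KDM5Ci over SA:ANH-vehicle 3 had a positive and 19 a negative log2 fold change, with a median of -0.21 and 1 called. The median of all genes tested was 0.00 there, and 2.51% of them were called. In SA:ANH-vehicle over NS 18 were positive and 4 negative, with a median of 0.22 and 0 called, against 0.0132% of all genes. These comparisons share the SA:ANH-vehicle libraries, which a high value in that group pushes in opposite directions. Over NS, the SA:ANH-KDM5Ci libraries had 11 positive and 11 negative values, with a median of 0.00 and 1 called, against 3.97% of all genes. The called target in both drug comparisons was Bcl2l1, which encodes the survival protein Bcl-xL. Bcl2l1 had 132, 124 and 133 CPM in SA:ANH-KDM5Ci, 94.7, 107 and 108 CPM in SA:ANH-vehicle and 103, 98.3 and 97.4 CPM in NS libraries. Its drug libraries lay above all others, with a log2 fold change of 0.33 and a standard error of 0.06 over SA:ANH-vehicle (adjusted p = 0.00748 in edgeR's quasi-likelihood test).

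Some inflammatory targets varied widely between libraries of 1 group, and the following 4 were singled out after their values were seen. Lcn2, which encodes the secreted acute-phase protein lipocalin-2, was at 20.7, 0.74 and 0.52 CPM in SA:ANH-KDM5Ci, 6.07, 2.52 and 0.32 CPM in SA:ANH-vehicle and 0.06, 0.06 and 0.40 CPM in NS libraries. Sele, the endothelial adhesion molecule E-selectin, was at 0.39, 0.03 and 0.10 CPM in SA:ANH-KDM5Ci, 3.73, 1.34 and 0.21 CPM in SA:ANH-vehicle and 0.08, 0.22 and 0.23 CPM in NS libraries. Selp, which encodes P-selectin, was at 1.38, 0.03 and 0.02 CPM in SA:ANH-KDM5Ci, 3.21, 0.92 and 0.09 CPM in SA:ANH-vehicle and 0.00, 0.06 and 0.13 CPM in NS libraries. All 3 genes were higher in the first and the second SA:ANH-vehicle library than in the third, and higher in the first SA:ANH-KDM5Ci library than in the other two. Icam1, another adhesion molecule, was at 6.07, 2.17 and 2.02 CPM in SA:ANH-KDM5Ci, 6.96, 5.88 and 3.77 CPM in SA:ANH-vehicle and 2.52, 3.07 and 3.98 CPM in NS libraries. None of the 4 was called in any comparison. A count of 3 stands for 0.0703 to 0.1 CPM, depending on the library.

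**Figure D4:**
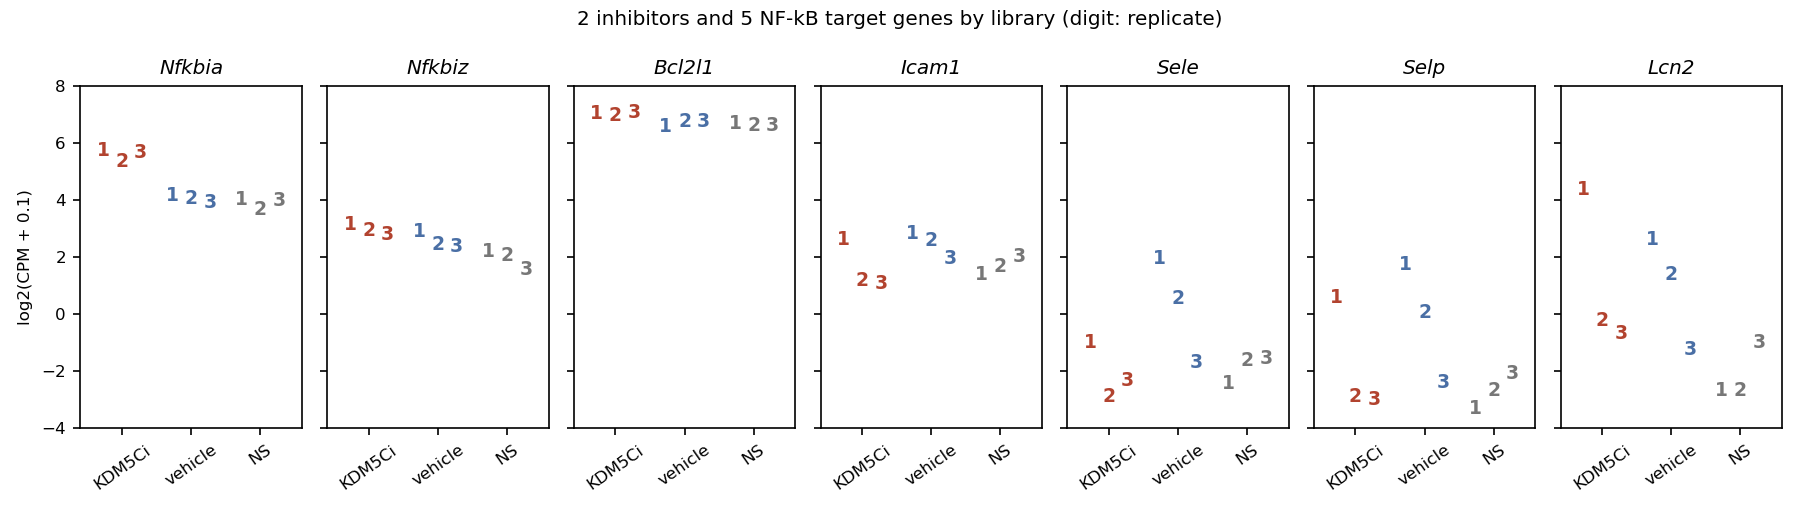
Level of Nfkbia, Nfkbiz and 5 NF-kB target genes in every library as log2 of CPM plus 0.1, with each digit marking a replicate. Lcn2, Sele and Selp spread widely within SA:ANH-KDM5Ci and SA:ANH-vehicle, while the 3 SA:ANH-KDM5Ci values of Nfkbia lie together above the other 6.

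The genes whose pattern was most like Nfkbia were found by the root mean square difference of gene-centred log2 CPM over the 9 libraries, among 11243 genes with a mean of at least 5 CPM. The nearest were Sgk1 at 0.12, Zfp189 at 0.16, Ddit4 at 0.22, Apold1 at 0.27 and Sap30 at 0.27 log2 units. No other member was among them: Nfkbiz came 54th at 0.53 and Tnfaip3 350th at 0.68. Sgk1, a serine/threonine kinase gene, had 161, 134 and 143 CPM in SA:ANH-KDM5Ci, 56.6, 53.0 and 51.6 CPM in SA:ANH-vehicle and 57.6, 48.4 and 52.9 CPM in NS libraries. Like Nfkbia, it was lowest among the drug libraries in the second, yet far above all vehicle and NS libraries. Likeness of pattern over 9 libraries that fall into 3 groups is a description.

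**Figure D5:**
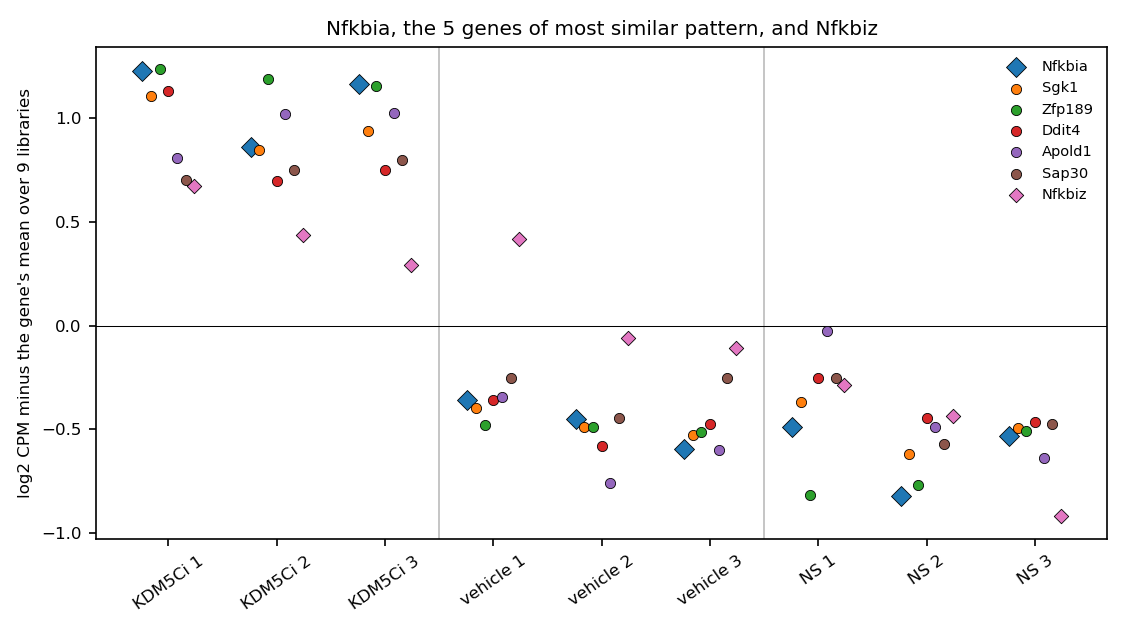
Log2 CPM minus the gene's mean over the 9 libraries for Nfkbia, the 5 genes with the smallest difference from it, and Nfkbiz; each point is a library, and libraries are grouped by treatment. Nfkbia and the 5 genes are above 0 in all 3 SA:ANH-KDM5Ci libraries and below 0 in the other 6, while Nfkbiz is also above 0 in the first SA:ANH-vehicle library.

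Nfkbia is a known target of the glucocorticoid receptor, so 15 comparison genes of that receptor were set beside the members. Over SA:ANH-vehicle, 7 of the 15 rose in SA:ANH-KDM5Ci and 0 fell, with a median log2 fold change of 0.53 against 0.00 for all genes tested and 2.51% of all genes called. The drug group over NS had 9 that rose and 0 that fell, with a median of 0.52, against 3.97% of all genes called. In SA:ANH-vehicle over NS edgeR's quasi-likelihood test called 0 of 15, against 0.0132% of all genes, with a median of 0.12. Fkbp5 had the lowest p of the 15 in that comparison, at a log2 fold change of 0.49 (adjusted p = 0.153 by the same test). Fkbp5 was called there in 4 of 21 alternatives, among them DESeq2 (adjusted p = 0.00265) and the fit without the first SA:ANH-KDM5Ci library (adjusted p = 0.0127), and over all 21 the adjusted p ran up to 0.518. The risers in the first comparison were Sgk1 (log2 fold change 1.44), Ddit4 (1.34), Cebpd (1.21), Fkbp5 (0.77), Tsc22d3 (0.71), Errfi1 (0.62) and Klf9 (0.46). Also on the list and not called there were Dusp1 (0.54), Zfp36 (0.44), Mt1 (0.17), Zbtb16 (0.16), Mt2 (0.12) and Nr3c2 (0.11). Fkbp5, a chaperone partner that dampens the receptor, had 65.6, 49.0 and 49.5 CPM in SA:ANH-KDM5Ci, 30.4, 33.1 and 32.5 CPM in SA:ANH-vehicle and 21.7, 23.6 and 23.2 CPM in NS libraries. Per1, a clock gene that glucocorticoids also induce, was at a log2 fold change of 0.53 and was not called (adjusted p = 0.0983 by the same test). The receptor gene Nr3c1 was not called either, at -0.23 (adjusted p = 0.0722). Other signals regulate several of these genes too, and the list was chosen with the Nfkbia result known. Fos, a mark of recent neuronal activity, was at 14.3, 18.5 and 12.6 CPM in SA:ANH-KDM5Ci, 29.7, 10.8 and 15.1 CPM in SA:ANH-vehicle and 45.7, 8.19 and 8.43 CPM in NS libraries, and it was not called.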

How the data were processed

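The authors deposited expected counts, which are estimates and can hold fractions. The submitters' processing notes name Trimmomatic 0.32, TopHat2 2.0.13, Bowtie2 2.2.3 and the build mm10, for reads from strand-specific libraries made from 1 ug of RNA, per the labels' protocols. The sources used here do not name the counting tool or its use of strand. NCBI gene IDs were matched to RefSeq GRCm38.p6 symbols for 32947 of 36172 features, and the unmatched held 0.265% of counts.

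Expected counts were rounded. Genes were filtered with filterByExpr, libraries were scaled by TMM (factors 0.987 to 1.01), and 1 fit of the 9 libraries was tested with edgeR 4.0.16 (R 4.3.3) by its quasi-likelihood test with robust moderation and Benjamini-Hochberg adjustment over 15144 genes at 0.05. The standard error is the size of the log2 fold change divided by the square root of F. CPM used TMM-scaled sizes, and likeness used a prior count of 2. A count of 0 allows up to 3 counts, for counting error only. The procedure was tested on simulated data. Alternatives were DESeq2 1.42.0, limma-voom (limma 3.58.1), other scaling, filters and thresholds, the replicate number as a block, and libraries left out.

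The members, lists and tests were chosen with earlier results of these data known. Named genes were all 10 members and, in each pathway list and comparison, up to 4 called genes of lowest p, or, with none, the gene of lowest p. To these were added the 5 genes most like Nfkbia, Kdm5a to Kdm5d, Fos, and Nr3c1, Fkbp5, Sgk1, Tsc22d3 and Per1; other genes named were chosen after their values were seen.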

Additional observations from a re-analysis of the deposited data

How the results depend on the processing

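The member counts (1, 0 and 2) did not change in any alternative tried, and the calls of Nfkbia and Nfkbiz were kept in all of them, with the adjusted p of Nfkbiz in SA:ANH-KDM5Ci over NS between 1.71e-05 and 0.045. The pathway count in SA:ANH-KDM5Ci over SA:ANH-vehicle, 3, was 3 to 6 with 1 library left out (6 without the first SA:ANH-KDM5Ci library) and 7 with the first replicate of every group left out. In SA:ANH-KDM5Ci over NS the pathway count, 4, was 8 by DESeq2, 8 with the replicate block and 7 at an adjusted p of 0.1. Whether replicate numbers pair the libraries was not settled. For this, each gene's group mean was subtracted from its log2 CPM, and what was left was correlated between libraries of 2 groups. In SA:ANH-KDM5Ci over SA:ANH-vehicle, these correlations were 0.238, 0.0839 and 0.184 for same-numbered libraries. Those of libraries with different numbers ran from -0.251 to 0.0851. In the comparisons with NS, same-numbered correlations ran from -0.144 to 0.102 and different-numbered ones from -0.194 to 0.209. The replicate block changed no other count of members or pathway genes. Counts over all genes moved more. In SA:ANH-KDM5Ci over SA:ANH-vehicle, 380 became 203 to 429 with 1 library left out, 171 at an adjusted p of 0.01 and 593 at 0.1. In SA:ANH-vehicle over NS, 2 became 2 to 17 with 1 library left out, 81 by DESeq2, 11 without TMM, 11 with no filter, 17 with only the 2 groups fitted, 15 without the first replicates and 15 at an adjusted p of 0.1. In SA:ANH-KDM5Ci over NS, 601 became 269 to 747 with 1 library left out, 227 at 0.01 and 1017 at 0.1. The cause of these shifts was not tested.

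Of 1279 gene alternatives, 1241 kept their direction and call, 12 lost a call (all of Map3k14), 9 gained one (4 of Fkbp5 in SA:ANH-vehicle over NS, 2 each of Nfkbil1 and Otud7b in SA:ANH-KDM5Ci over NS, 1 of Il1a) and 17 turned direction, none of them in a called gene. With 1 library left out, the log2 fold change of SA:ANH-KDM5Ci over SA:ANH-vehicle turned for Nfkb2 (-0.233 to 0.0101). SA:ANH-KDM5Ci over NS turned for Nfkb2 (-0.0769 to 0.161) and Rela (-0.0378 to 0.172). SA:ANH-vehicle over NS turned for Rel (-0.187 to 0.117), Rela (-0.158 to 0.0496), Relb (-0.0496 to 0.144) and Nfkbie (-0.0416 to 0.104). With the first replicates left out it was 0.00191 for Rela, -0.0269 for Relb and 0.0276 for Nfkbib, and without TMM it was 0.00309 for Rel. None of these members was called in these comparisons.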
